A study of Homo sapiens with 2 samples.

Results

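The regions described here are the ZNF676 peaks at the starts of long noncoding RNA (lncRNA) genes. A peak was taken when its midpoint was no more than 500 bp from the start of any transcript of a lncRNA gene and more than 500 bp from every transcript start of protein-coding type, with starts from GENCODE release 44 lifted to GRCh37. This gave 105 peaks of the 6142 in the ZNF676 list (1.71%, exact binomial 95% interval 1.40 to 2.07), a number set by the window and by the annotation. Of the other peaks, 1454 lay within 500 bp of a protein-coding start and 4583 lay elsewhere.

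The study overexpressed HA-tagged ZNF676 or ZNF728 in HEK293T, an established human embryonic kidney line, and mapped both proteins by ChIP-exo through the tag. In ChIP-exo, an exonuclease trims the immunoprecipitated DNA up to the crosslinked protein. Both groups were stable lines made with lentiviral vectors, selected in 1 µg/ml of puromycin for 7 days, induced with 1 µg/ml of doxycycline and fixed for 10 min in 1% formaldehyde, and they differed in the protein expressed. ZNF676 was expressed from a codon-optimised reconstruction of its full-length form, so the sites are those of an overexpressed protein in 1 cell type. Each protein had 1 ChIP-exo library, so no value below has a replicate check and no test between libraries was possible. The paper also describes replicated ChIP-seq of ZNF676 in HEK293T, which was not used here. The intervals given are exact binomial 95% intervals over peaks or genes and cover their number only. The lists hold a position and a score for each peak but no read counts, and the depth behind a peak is unknown.

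LncRNAs are transcribed by RNA polymerase II from promoters that resemble those of coding genes, but fewer of these lie in CpG islands, which are stretches rich in G, C and CpG pairs. Many lncRNA genes start in transposable elements. LTR12C, the long terminal repeat of the ERV9 family of endogenous retroviruses, carries its own promoter and is one such source of transcripts. ZNF676 and ZNF728 are primate members of the KRAB zinc finger protein (KZFP) family, whose zinc finger arrays recognise DNA, most often in transposable elements, and whose KRAB domain recruits the corepressor KAP1. No transcription was measured in these 2 libraries, so whether a lncRNA start was in use was not analysed here, and the cell line could not be checked against its marker genes.

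The reference sequence around the midpoints of 10 peaks is given from GRCh37, 5′ to 3′. The first 5 are the peaks that touched a sequence similar to LTR12C, shown over 200 bases on the strand of that copy. Capitals mark the span of the copy, in which aligned stretches within 300 bp of each other were joined. They may therefore include bases that did not align. These 5 are shown because the shared repeat sequence, and the limits of that span, can be read in them. Their positions are chr12:108257955-108258154, plus strand, for ENSG00000257398, chr6:160941545-160941744, minus strand, for LPAL2, chr17:75522380-75522579, minus strand, for ENSG00000267665, chr4:137316296-137316495, plus strand, for ENSG00000251567 and chr5:34244958-34245157, minus strand, for ENSG00000290548.
ENSG00000257398: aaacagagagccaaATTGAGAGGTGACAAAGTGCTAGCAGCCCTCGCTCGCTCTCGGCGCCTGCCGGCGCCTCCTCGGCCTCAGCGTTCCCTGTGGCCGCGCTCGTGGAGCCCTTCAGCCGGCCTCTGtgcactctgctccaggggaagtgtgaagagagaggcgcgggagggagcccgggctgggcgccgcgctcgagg
LPAL2: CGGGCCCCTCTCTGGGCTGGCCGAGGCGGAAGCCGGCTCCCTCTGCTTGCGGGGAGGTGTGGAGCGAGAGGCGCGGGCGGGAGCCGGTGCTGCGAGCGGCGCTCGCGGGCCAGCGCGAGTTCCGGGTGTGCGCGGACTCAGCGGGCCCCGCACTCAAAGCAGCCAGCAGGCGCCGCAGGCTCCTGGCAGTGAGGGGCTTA
ENSG00000267665: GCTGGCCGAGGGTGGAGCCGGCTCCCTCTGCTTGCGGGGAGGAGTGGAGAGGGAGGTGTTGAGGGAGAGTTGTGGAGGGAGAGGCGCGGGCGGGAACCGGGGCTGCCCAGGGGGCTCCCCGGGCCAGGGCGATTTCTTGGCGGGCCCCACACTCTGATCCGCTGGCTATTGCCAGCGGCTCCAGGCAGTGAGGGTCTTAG
ENSG00000251567: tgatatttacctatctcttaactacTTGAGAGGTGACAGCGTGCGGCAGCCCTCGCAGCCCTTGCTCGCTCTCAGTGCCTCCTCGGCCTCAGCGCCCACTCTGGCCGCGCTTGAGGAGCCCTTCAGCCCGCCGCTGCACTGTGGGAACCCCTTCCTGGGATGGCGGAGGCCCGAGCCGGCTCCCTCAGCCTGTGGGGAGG
ENSG00000290548: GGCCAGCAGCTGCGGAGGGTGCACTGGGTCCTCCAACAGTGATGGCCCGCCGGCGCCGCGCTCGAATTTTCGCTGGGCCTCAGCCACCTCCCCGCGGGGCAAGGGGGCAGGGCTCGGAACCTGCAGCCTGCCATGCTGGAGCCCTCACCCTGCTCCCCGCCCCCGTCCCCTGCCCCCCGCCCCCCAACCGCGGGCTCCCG

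The other 5 are peaks with a CpG-rich centre, on the strand of the lncRNA, with each GC box (GGGCGG or its complement) and each CCAAT (or its complement) in capitals. They are shown for the GC boxes and the many CpG pairs that most of the 105 peaks shared, and they hold 18 to 35 CpG pairs each. They lie at chr20:26189509-26189708, minus strand, for MIR663AHG, chr12:132568730-132568929, plus strand, for ENSG00000291171, chr15:93426203-93426402, plus strand, for CHASERR, chr13:92000450-92000649, plus strand, for MIR17HG and chr16:54962553-54962752, minus strand, for CRNDE.
MIR663AHG: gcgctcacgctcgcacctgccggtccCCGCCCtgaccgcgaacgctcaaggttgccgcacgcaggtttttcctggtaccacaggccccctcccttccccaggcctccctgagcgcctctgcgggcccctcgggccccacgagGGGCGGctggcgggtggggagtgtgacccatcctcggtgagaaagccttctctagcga
ENSG00000291171: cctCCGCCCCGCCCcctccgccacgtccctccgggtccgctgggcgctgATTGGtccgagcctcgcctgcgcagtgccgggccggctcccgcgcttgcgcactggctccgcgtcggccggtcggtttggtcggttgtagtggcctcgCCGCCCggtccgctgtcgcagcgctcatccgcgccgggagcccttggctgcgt
CHASERR: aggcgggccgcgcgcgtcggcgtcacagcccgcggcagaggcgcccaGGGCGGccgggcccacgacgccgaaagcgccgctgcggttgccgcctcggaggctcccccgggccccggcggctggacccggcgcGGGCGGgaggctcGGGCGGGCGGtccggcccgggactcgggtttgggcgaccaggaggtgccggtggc
MIR17HG: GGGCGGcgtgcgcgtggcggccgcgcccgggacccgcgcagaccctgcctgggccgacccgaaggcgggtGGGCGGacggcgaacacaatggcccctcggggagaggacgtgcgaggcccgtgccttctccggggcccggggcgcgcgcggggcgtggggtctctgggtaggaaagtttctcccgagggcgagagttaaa
CRNDE: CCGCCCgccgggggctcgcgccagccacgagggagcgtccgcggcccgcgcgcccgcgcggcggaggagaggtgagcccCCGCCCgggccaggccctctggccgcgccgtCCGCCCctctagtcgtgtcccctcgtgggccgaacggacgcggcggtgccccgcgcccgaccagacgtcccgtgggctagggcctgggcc

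The score of the 105 peaks ranged from 81.42 to 3100 with a median of 102 (quartiles 89.0 and 137). The score is the value that the authors deposited for each peak, and it has no unit stated in the sources used here. Peaks at protein-coding starts had a median score of 110 and those elsewhere a median of 92.6. Of the 105 peaks, 47 scored under 100 and 15 scored at least 200 (14.3%, 8.22 to 22.5), beside 13.8% (12.03 to 15.6) at coding starts and 7.44% (6.70 to 8.24) elsewhere. Among the 53 peaks of the whole list with a score of 1000 or more, 4 were at lncRNA starts (7.55%, 2.09 to 18.2), compared with 47 of 3474 under 100 (1.35%, 0.996 to 1.80). The intervals of those 2 shares did not overlap. Between them, the share was 2.04% (1.48 to 2.73) from 100 to 200 and 2.19% (1.10 to 3.88) from 200 to 1000. Both of these intervals overlapped that of 1000 or more. A score of 1000 or more was reached by 3.81% of the 105 peaks (1.05 to 9.47) and by 1.17% at coding starts (0.683 to 1.87), with overlapping intervals.

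These 4 peaks lay at genes of different kinds. MIR663AHG, the host gene of the microRNA miR-663a, held the highest score, 3100, at chr20:26188655-26190563, and 18 peaks of the whole list, this one included, shared this largest value, so it may be a ceiling of the score and gives no order among them. The peak was 1909 bp wide, covered the start and had its midpoint 66 bp downstream. ENSG00000257398 on chromosome 12 followed with 1607, its midpoint 284 bp inside the gene. The peak of ENSG00000291171, also on chromosome 12, scored 1348 and its midpoint was the start site itself (0 bp). LPAL2, a relative of the apolipoprotein(a) gene LPA that is annotated as a lncRNA here, scored 1248 with its midpoint 344 bp upstream.

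The scores then fell quickly. ENSG00000235978 on chromosome 3, whose nearest coding start is that of the calcium channel gene ITPR1, scored 824 with its midpoint 180 bp upstream. At ENSG00000251867 the peak scored 496 and lay in an exon of ZBTB10, a zinc finger gene whose nearest coding start was 519 bp away. TRIM52-AS1, antisense in name to the ubiquitin ligase gene TRIM52, scored 405. Next came ENSG00000267665 with 362, ENSG00000251567 with 352 and ENSG00000289614 with 348. CHASERR, a lncRNA upstream of the chromatin remodeler gene CHD2 that lowers its expression, scored 302 and had its midpoint 58 bp downstream of the start. ENSG00000289073, in an intron of NUBP1, closed the highest 12 with 237.

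**Figure D1:**
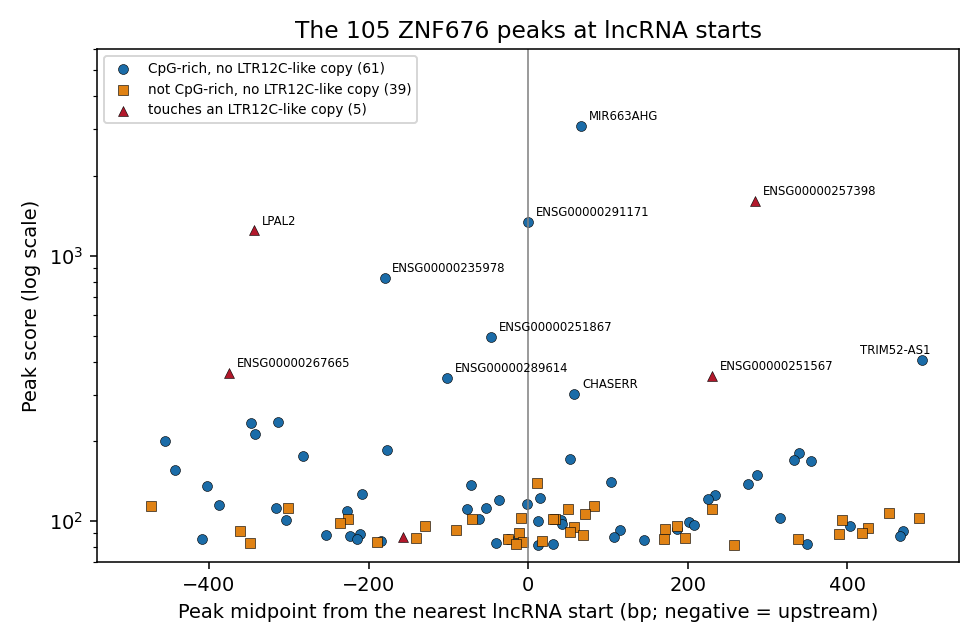
Score of each of the 105 ZNF676 peaks (log scale) against the distance of its midpoint from the nearest lncRNA start in bp, negative upstream, with 1 symbol per peak. Peaks above a score of 300 are named, 4 of the 5 peaks touching an LTR12C-like copy are among them, and peaks without CpG enrichment stay below 150 except where they touch such a copy.

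The rule set the outer limit of the distances but not their order within it. Each distance is to the nearest annotated transcript start, and a window can hold many, 86 at MIR663AHG and 19 at ENSG00000291171. More starts leave more room for a short distance, and their number was not taken into account. The median unsigned distance was 190 bp (quartiles 58 and 333), with 37 midpoints within 100 bp, 30 over 100 and up to 250 bp and 38 over 250 bp. Upstream and downstream positions were about equally frequent, with 50 of 104 midpoints upstream (48.1%, 38.2 to 58.1) and 1 at the start. The peak itself covered the nearest start in 71 of 105 cases (67.6%, 57.8 to 76.4). At the limits, the farthest included midpoint was that of TRIM52-AS1, 494 bp from its start, and the nearest excluded one lay 505 bp from a start of LINC01511 with a score of 187. On the other side, METTL14-DT was included with a coding start 501 bp away, and the peak at ANKH-DT, 499 bp from a start of ANKH, was not.

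Peaks outside the window of the rule were counted as well. Among peaks away from coding starts, 105 lay within 500 bp of a lncRNA start, 53 over 500 and up to 1000 bp, 91 over 1000 and up to 2000 bp and 75 over 2000 and up to 3000 bp. Per kb of distance, both sides together, this was 210, 106, 91 and 75 peaks. The number of bases that lie at each distance was not taken into account. The 250 bp just upstream and just downstream of the starts held 32 and 35 peaks, while no bin of the same size beyond 500 bp held more than 15. CpG-rich centres made up 61.9% of the peaks within 500 bp, 52.8%, 28.6% and 24.0% in the next 3 zones. Per Mb of sequence, the lncRNA windows held 4.40 peaks, the windows around coding starts 36.8 and the rest of the genome 1.64.

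**Figure D2:**
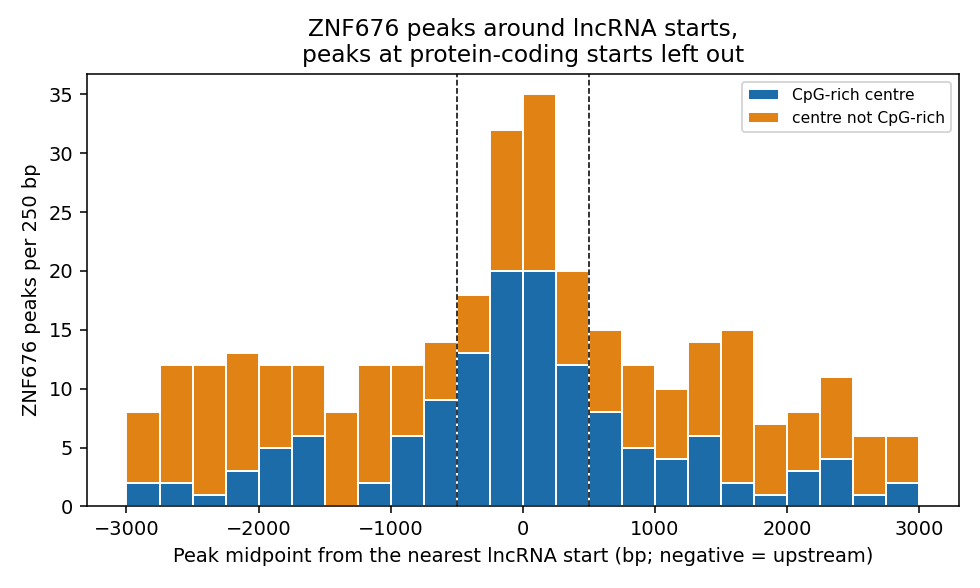
ZNF676 peaks per 250 bp around the nearest lncRNA start, by the position of the midpoint (bp, negative upstream), without peaks within 500 bp of a protein-coding start; colours separate CpG-rich centres from the others and dashed lines mark the limits of the rule. The 2 central bins hold 32 and 35 peaks, and no bin outside the dashed lines holds more than 15.

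The 105 peaks lay near starts of 115 lncRNA genes, and none of these genes had 2 of the peaks. Of 18305 lncRNA genes with a start window not wholly taken by coding starts, this was 0.628%. By comparison, 1557 of 19821 protein-coding genes (7.86%) had a ZNF676 peak at a coding start by the same window. Another 220 peaks within 500 bp of a lncRNA start were also within 500 bp of a coding start and were left out by the rule. With them, 338 of 18702 lncRNA genes (1.81%, 1.62 to 2.01) would have a peak, so most lncRNA starts with a peak nearby shared it with a coding promoter.

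By symbol, 55 of the 105 peaks lay at genes known only by an identifier. The others were 15 antisense genes (-AS), 14 LINC genes, 13 genes with another symbol, 3 divergent transcripts (-DT), 3 microRNA host genes, 1 small nucleolar RNA host gene and 1 intronic transcript. Counted over genes, 3 of 81 microRNA host genes had a peak (3.70%, 0.770 to 10.4), 15 of 1750 antisense genes (0.857%, 0.481 to 1.41), 14 of 2247 LINC genes (0.623%, 0.341 to 1.04) and 63 of 12727 genes without a proper symbol (0.495%, 0.381 to 0.633). Divergent transcripts were at 0.528% (3 of 568). The rule leaves out peaks within 500 bp of coding starts. The shares of classes whose genes often start there, such as divergent transcripts, may therefore be lowered by the rule. Genes with any other symbol were at 1.97% (15 of 763, 1.10 to 3.22), and this interval lay above that of genes without a proper symbol.

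A list of well studied lncRNAs, with all SNHG and microRNA host genes, held 136 genes, of which 6 had a peak (4.41%, 1.64 to 9.36), beside 0.628% for all lncRNA genes. The list was drawn up with earlier results known and leaves out other known lncRNAs with a peak, such as CHASERR, so the share is a count for this list alone. MIR663AHG is described above. MIR17HG, which encodes the miR-17-92 cluster of growth-promoting microRNAs, carried the widest of the 105 peaks, 2275 bp, with a score of 168 and its midpoint 354 bp inside the gene. The peak at MIR210HG, host of the hypoxia-induced miR-210, scored 136 with its midpoint 403 bp upstream. At SNHG25 the peak scored 102, covered the start of the gene and lay within 500 bp of the small nucleolar RNA gene SNORD104, which the transcript hosts. JPX, a lncRNA of the X inactivation centre, and CRNDE, a lncRNA first described in colorectal tumours, had low scores of 86.0 and 85.5, and CRNDE's peak lay 25 bp from its start. After MIR17HG and MIR663AHG, the third widest peak was that of ENSG00000278177, 1721 bp, in an intron of the glypican gene GPC6.

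Base composition split the 105 peaks. The central 300 bp had a median GC content of 66.3% (quartiles 50 and 75.7), between the 76.0% of peaks at coding starts and the 47.0% of peaks elsewhere. With CpG-rich defined as at least 50% GC and at least 0.6 of the CpG pairs that the G and C content predicts, 65 of 105 centres were CpG-rich (61.9%, 51.9 to 71.2). The share was 95.1% (93.9 to 96.2) at coding starts and 10.3% (9.39 to 11.2) elsewhere. The 3 intervals were apart from each other.

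The 65 CpG-rich peaks were wide, with a median of 659 bp (quartiles 515 and 826), and had a median score of 115. They were close in both to the 1383 CpG-rich peaks at coding starts, whose medians were 683 bp and 111. The 40 other peaks had a median width of 306 bp (quartiles 189 and 426) and a median score of 94.8, close to the 268 bp and 92.6 of the 4113 peaks elsewhere that were not CpG-rich. Of these 40, 19 were narrower than 300 bp, compared with 2 of the 65. A score of at least 200 was reached by 14 of the 65 and by 1 of the 40, ENSG00000267665, which lies on an LTR12C-like copy. The start was covered by 48 of 65 CpG-rich peaks and by 23 of 40 others. Width is itself a readout of the peak caller, and a wider peak covers a start more easily.

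**Figure D3:**
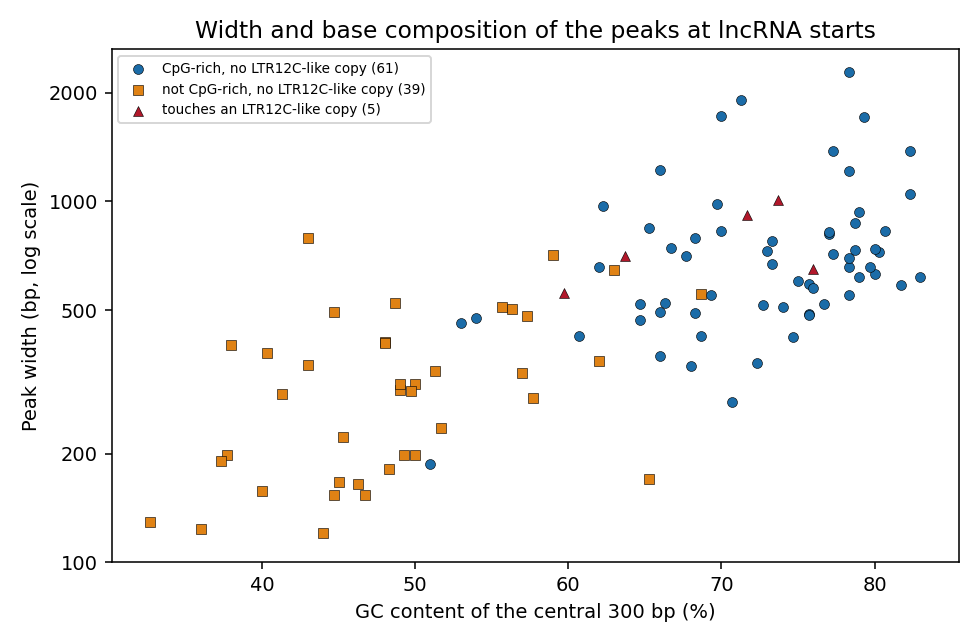
Width of each of the 105 peaks (bp, log scale) against the GC content of its central 300 bp (%), with colours and symbols for CpG-rich peaks, other peaks and the 5 peaks touching an LTR12C-like copy. Peaks narrower than 200 bp lie at low GC content with few exceptions, and peaks wider than 1000 bp all lie above 60% GC.

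The same was seen from the side of the genes. LncRNA genes with 1 of the 105 peaks had a median GC content of 63.0% in the 300 bp around their first start. The 18174 genes without one had 49.3%. Here and below, a lncRNA gene or start without a peak is one without any of the 105. Such a gene may have a ZNF676 peak that also lay within 500 bp of a coding start. The share with a peak was higher at higher GC content, from 0.125% (0.0341 to 0.320) of 3194 genes under 40% to 0.399% of 6258 genes from 40 to 50%, 0.440% of 4772 from 50 to 60%, 1.16% (0.795 to 1.63) of 2757 from 60 to 70% and 2.52% (1.74 to 3.53) of 1308 at 70% and over. Protein-coding genes followed the same order at a higher level, from 2.88% to 15.02%. In each of the 5 bands the intervals of lncRNA and coding genes were apart. The bands keep lncRNA genes whose first start was within 500 bp of a coding start, 2405 genes in all. The rule leaves out peaks there, so the lncRNA shares by band may be lowered by it. Because the rule removes lncRNA starts beside coding starts, the 15900 lncRNA genes whose first start was over 500 bp from coding starts were also counted alone. Among these, 54 of 1925 with a CpG-rich start had a peak (2.81%, 2.11 to 3.64) and 46 of 13975 others (0.329%, 0.241 to 0.439), compared with 10.9% (10.3 to 11.4) of coding genes with a CpG-rich start. Transcription and chromatin state, which also differ between lncRNA and coding genes, were not measured here, and their part in this difference was not tested.

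**Figure D4:**
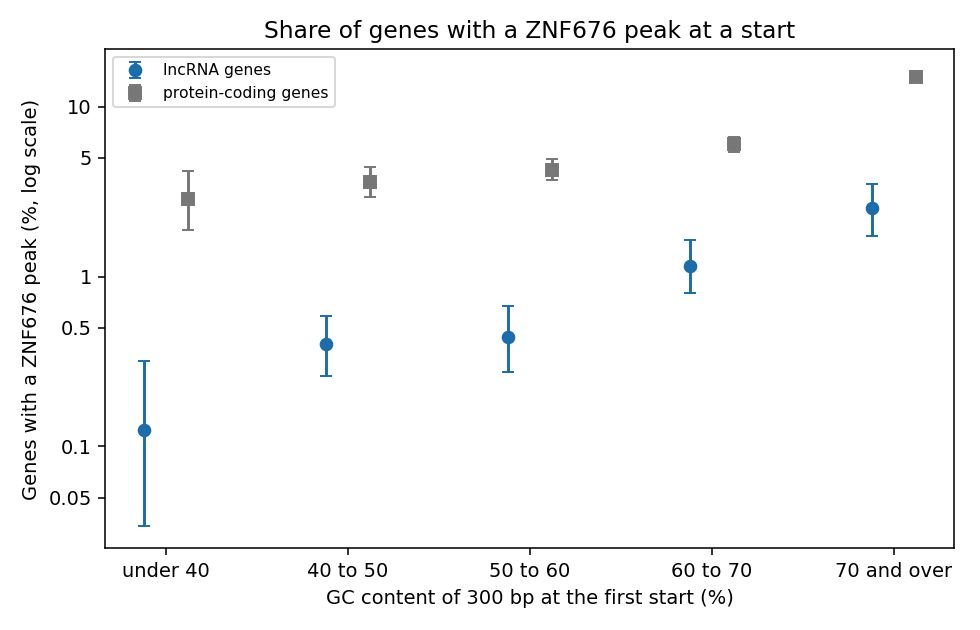
Share of lncRNA genes and of protein-coding genes with a ZNF676 peak at a start (%, log scale) by the GC content of the 300 bp around the first start; bars are exact binomial 95% intervals. LncRNA genes go from 0.125% to 2.52% and protein-coding genes from 2.88% to 15.02%, with the lncRNA genes lower in every band. The lncRNA genes include those that start within 500 bp of a coding start, where the rule leaves out peaks.

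Short promoter motifs were searched in the central 300 bp on both strands, by letters alone. For lncRNA starts without a peak, the 300 bp were centred on the first start of the gene. Those of peaks were centred on the midpoint, which was over 250 bp from the start in 38 of the 105. The windows compared are therefore placed differently around the start. None of the 10 motifs contains another. The GC box GGGCGG, bound by SP1 and related factors, was in 57 of 105 peaks (54.3%, 44.3 to 64.0), beside 80.5% at coding starts, 14.2% elsewhere and 21.2% of the 18190 lncRNA starts without a peak. It followed GC content closely. None of the 39 peaks under 60% GC held it, which allows up to 9.03%, whereas 73.9% of the 23 from 60 to 70% and 93.0% of the 43 at 70% and over did. Starts without a peak in those 2 upper bands held it in 56.0% and 86.4%, and both values lay inside the intervals of the peaks (51.6 to 89.8 and 80.9 to 98.5). Split by CpG content instead, 54 of the 65 CpG-rich peaks held it (83.1%, 71.7 to 91.2). CpG-rich starts without a peak held it in 67.4%, outside the interval. Those starts include ones within 500 bp of coding starts, where the rule leaves out peaks, and the part of this was not tested.

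CCAAT, the box bound by NF-Y, was in 21 of the 105 peaks (20.0%, 12.8 to 28.9), compared with 13.1% at coding starts, 29.1% elsewhere and 34.6% of lncRNA starts without a peak. It was found in 11 of the 20 peaks from 40 to 50% GC (55.0%, 31.5 to 76.9) and in 3 of the 43 at 70% and over (6.98%, 1.46 to 19.1). Starts without a peak held it in 39.7% and 18.4% of the same bands, each inside the interval of the peaks. Among CpG-rich sequences, 6 of 65 peaks held it (9.23%, 3.46 to 19.02), compared with 27.4% of starts without a peak, outside the interval. GC content was not matched within the CpG-rich groups, and its part in the difference was not tested. The CpG-rich starts without a peak also include starts beside coding starts, where the rule leaves out peaks. Of 3784 lncRNA genes with a CpG-rich start, 1925 had their first start over 500 bp from coding starts. The part of this in the difference was not tested either. Of the 40 peaks that were not CpG-rich, 15 held CCAAT (37.5%, 22.7 to 54.2) and 5 held TATAAA, the TATA box (12.5%, 4.19 to 26.8). Starts without a peak that were not CpG-rich held them in 36.5% and 18.1%, inside both intervals. No CpG-rich peak held TATAAA, which allows up to 5.52%, and CpG-rich starts without a peak held it in 3.50%.

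The other 7 motifs were each in 11 peaks or fewer. TGCGCA, part of the NRF1 site, was in 11 peaks (10.5%) and the ETS motif CCGGAAG in 7 (6.67%), near their shares at coding starts of 9.56% and 9.42%. LncRNA starts without a peak held them in 4.34% and 4.68%, and the CpG-rich ones among these starts in 13.0% and 15.2%. The E-box CACGTG was in 4 peaks (3.81%), beside 4.02% of all ZNF676 peaks and 5.34% of starts without a peak. The cAMP response element TGACGTCA was in 3 (2.86%), beside 0.407% and 0.819%. Both the YY1 motif AAGATGGC and the THAP11 and ZNF143 motif ACTACAA were in 2 peaks (1.90%), where all ZNF676 peaks held them in 1.47% and 2.95% and starts without a peak in 1.70% and 2.68%. The Kaiso motif TCTCGCGA was in 1 (0.952%), beside 0.244% and 0.418%. With counts of 4 or fewer, the intervals are wide, and only that of TGACGTCA (0.593 to 8.12) left out 1 of these 2 backgrounds, that of all peaks. CpG-rich starts without a peak held TGACGTCA in 2.58%, inside its interval. ENSG00000291171, the third highest peak, held the NF-Y, SP1, NRF1 and ZNF143 motifs together. Sequence similar to the 7SL RNA, from which Alu elements derive, was in 1 of the 105 centres (0.952%) and in 3.05% of the peaks elsewhere.

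**Figure D5:**
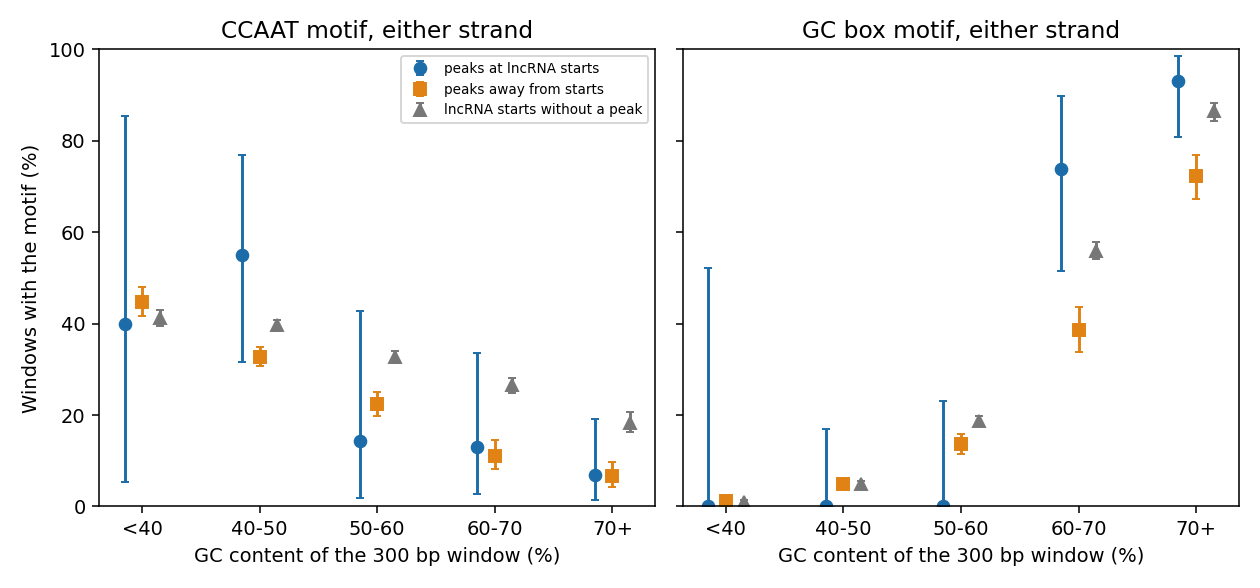
Share of 300 bp windows with CCAAT (left) and with the GC box (right) by GC content, with exact binomial 95% intervals as bars. Windows are centred on the midpoint for the 105 peaks and for ZNF676 peaks away from starts. For lncRNA starts without any of the 105 peaks, they are centred on the first start of the gene. In both panels the 105 peaks follow GC content, with CCAAT most frequent from 40 to 50% GC and the GC box in 93.0% of peaks at 70% and over.

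Copies similar to LTR12C were touched by 5 of the 105 peaks (4.76%, 1.56 to 10.8) and 3 had at least 50% of their length on one (2.86%, 0.593 to 8.12). Elsewhere, 8.10% of peaks were on a copy with the 5′ extension, a stretch at the start of the repeat that some copies lack, and at coding starts 0.0688%. The 3 peaks were those of ENSG00000267665 (74.4% on the copy), ENSG00000251567 (63.7%) and ENSG00000290548 (100%), and each of these copies has the extension. LPAL2 had 46.2% of its peak on a shortened copy of 467 bp with the extension, and ENSG00000257398 had 16.2% on an aligned fragment of 114 bp. Of the 5, 4 were among the 12 highest-scoring peaks. Their median score was 362, whereas that of ENSG00000290548 was 87.0. Alone among the 5, this last peak had near-identical places elsewhere in the genome, 5 of them. Reads that fit such places equally were discarded, and the part of this in its score was not tested.

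The printed sequences show the repeat. ENSG00000257398 and ENSG00000251567, where the copy begins within the window, both open with flanking bases followed by the first bases of the repeat, and share a run of 18 bases. LPAL2 and ENSG00000267665, centred 212 and 224 bp into their copies, share a run of 27 bases. At ENSG00000251567 the midpoint was 76 bp and at ENSG00000290548 415 bp into the copy, and the latter window shared at most 14 bases in a row with any of the others. In ENSG00000257398, the runs of 12 bases shared with LPAL2 and with ENSG00000267665 and of 14 bases shared with ENSG00000290548 lie past the capitals, so the capitals need not mark where the repeat ends.

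These repeats stood in different relations to the lncRNAs. At ENSG00000290548 the nearest annotated start lay inside the copy, 572 bp from its 5′ end and on its strand. The 500 bp around this midpoint also held a start of ENSG00000286543, and the lncRNA starts there were on both strands. The start of ENSG00000251567 was also inside its copy, at 306 bp, but on the opposite strand. The gene ENSG00000267665 started 152 bp outside the 5′ end of its copy and ran away from it, and LPAL2 started 89 bp beyond the 3′ end of its shortened copy on the same strand. The fragment at ENSG00000257398 lay downstream of the start of that gene, on the opposite strand.

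Most lncRNAs that start inside a bound LTR12C-like copy were not reached by the 500 bp window. Of 2483 copies with the extension, 140 held a lncRNA start over 500 bp from coding starts, and 10 of these carried a ZNF676 peak (7.14%, 3.48 to 12.7), compared with 371 of 2343 copies without such a start (15.8%, 14.4 to 17.4). Among the 96 copies with such a start on their own strand, 9 carried a peak (9.38%, 4.38 to 17.1). This interval overlaps that of copies without a lncRNA start. Only 2 of the 10 peaks met the rule, at ENSG00000251567 and ENSG00000290548. In the other 8, the peak midpoint lay 16 to 209 bp into the copy from its 5′ end and the lncRNA started 809 to 1618 bp from it, which put the peak 746 to 1548 bp upstream of the start. CCDC13-AS2, with a score of 218 and its peak 994 bp upstream, and LINC02818, with 230 and 1259 bp, were of this kind, and were named after their values were seen. In all 8, the lncRNA was on the strand of the copy, as it was in 96 of the 140 copies with a lncRNA start.

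The distance to the nearest coding start varied widely. For 22 peaks the nearest coding start was over 500 and up to 1000 bp away, for 12 it was up to 10000 bp and for 71 it was over 10000 bp. Of the 18305 lncRNA genes, 12009 also had their first start over 10000 bp from a coding start. A peak was at 0.674% of these 12009 (0.536 to 0.838), near the 0.628% of all lncRNA genes. Of the 22, 20 were CpG-rich (90.9%) and had a median score of 118 over the whole group, compared with 45 of 83 (54.2%) and 101 for the peaks farther away. In 13 of the 22 the lncRNA and the coding gene were head to head, in 8 on opposite strands in other arrangements and in 1 on the same strand. NINJ2-AS1 (score 172, 510 bp from a start of NINJ2), CAHM (150, 970 bp from QKI) and CEBPB-AS1 (112, 721 bp from CEBPB) belong here and were chosen after their values were seen. The midpoints of 73 peaks were outside protein-coding genes, 23 were in an intron and 9 in an exon. For 6 peaks (5.71%) the nearest coding gene had a symbol that begins with ZNF, ZFP, ZSCAN or ZKSCAN, which does not take in every zinc finger gene. These were ZNF337 (512120 bp away), ZNF730 (3783 bp), ZNF710 (8304 bp), ZNF429 (22464 bp), ZNF92 (126163 bp) and ZNF473 (24743 bp), so several were distant. Over lncRNA genes the share with such a neighbour was 6.09% (2.48 to 12.1) with a peak and 3.18% (2.93 to 3.44) without.

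Some of the peaks lay in repeated parts of the genome. For 14 of the 105 (13.3%, 7.49 to 21.4), at least 90% of the central 300 bp had another place in the genome with at least 95% identity, compared with 2.13% (1.45 to 3.01) at coding starts. The number of other places was 1 for 6 peaks and at most 6. Of the 14, 8 were also within 500 bp of the start of a pseudogene transcript, such as ANAPC1P2 (score 139) and PGM5P2 (87.3), and were named after their values were seen. Among the 14, ENSG00000289614, with 4 other places and a score of 348, was alone in scoring 200 or more. The authors removed reads with a mapping quality below 10, so reads that fit 2 places equally are missing at such sites, and the part this played in their scores was not tested. Without the 14, the 91 remaining peaks had a median score of 102.

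None of the 105 peaks overlapped a ZNF728 peak, which allows up to 3.45%, and no ZNF728 midpoint was within 1000 bp of theirs. Of the 248 ZNF728 peaks, 2 met the same rule (0.806%, 0.0978 to 2.88). The ZNF728 interval overlaps the 1.40 to 2.07% found for ZNF676. They lay at LINC02932 (score 127, 91.8% on an ERV9-like copy, midpoint 16 bp from the start) and at ENSG00000289966 (338, 71.0% on an ERV9-like copy). Scores were not compared between the 2 lists, since they came from separate libraries. ERV9-like copies are the internal 5′ part of the provirus, next to its LTR, and no ZNF676 peak at a lncRNA start lay on one.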

How the data were processed

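The authors aligned single-end reads with Bowtie2 to the hg19 build, discarded those of mapping quality below 10 or in blacklisted or high-input regions, and used MACS with a total input as control to call peaks in the 1 library of each protein. The deposited score is the authors' value for each peak and served here to describe and rank peaks within 1 list. The lowest scores were 80.01 (ZNF676) and 80.19 (ZNF728), so weaker peaks were not analysed here. The sources name different sequencing instruments. Every peak end lay within the GRCh37 chromosomes, the build of the lists.

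Starts came from GENCODE release 44 lifted to GRCh37 and sequence from the GRCh37 genome. Peak positions were midpoints. LTR12C-like and ERV9-like copies were found with blastn 2.17.0 (E-value at most 1e-10, hits within 300 bp joined) from the regions that the study's primers amplify, and the extension was called from the first 600 bp. Alu-like sequence was an alignment of at least 80 bp to the 7SL transcript RN7SL2. Shares carry exact (Clopper-Pearson) 95% intervals from SciPy 1.17.1, with Python 3.11.15, NumPy 2.4.6 and pysam 0.24.0. With 1 library per protein, no tests were made. The rule was tested on simulated peaks, and the motif search on motifs planted in random sequence, which checks only that motifs present are found. The blastn searches were not tested in this way. The peaks named are the 12 highest-scoring, those with 50% or more on a copy, those at listed well studied lncRNAs, the 3 widest and those at the limits of the rule; others are marked where they occur. The members and lists were chosen with earlier results of these data known. The sequence of 1 peak is not reported here.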

Additional observations from a re-analysis of the deposited data

How the results depend on the processing

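Of 50 recalculations over 18 values, 43 stayed within 1.5 times the count, or within the 95% interval of the share or median, and 7 did not. With only scores of at least the list's median (95.08), 65 of the 105 peaks were left, at 73 lncRNA genes. In 200 bp in place of 300 bp, CCAAT was in 11.4% and GGGCGG in 43.8% of the peaks, as fewer bases were searched. ZNF728 peaks at lncRNA starts numbered 1 with a window of 250 bp, 4 with 1000 bp and 1 with such scores. The 105 peaks became 88 with 250 bp and 120 with 1000 bp for both limits, 103 with any base of the peak, 103 with basic transcripts, 102 with coding starts by gene type and 91 without near-identical places; the last setting was chosen after seeing the data. The share upstream stayed between 46.0% and 48.7%. No paired analysis was possible because each protein had 1 library. Depth is unknown, so a lncRNA start without a peak was not shown to be unbound.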
